A study of Mus musculus with 8 samples.

Results

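Map2 and 9 other genes that build, bind or regulate microtubules were followed in cultured fibroblasts. They were Map2, Map1a, Map1b, Map4, Mapt, Stmn1, Stmn2, Tubb3, Tubb2b and Dpysl3, 10 of the 22274 genes in the count table. The set was chosen by symbol around Map2, which was selected on its large difference between the groups described here, so values of these 10 genes are given as a description, with no p-value for any of them. Of the 10, 9 passed the filter on low counts and Stmn2 did not. The study compared primary mouse cardiac fibroblasts, all treated with TGF-β, in 4 libraries labelled GFP and 4 labelled OEIRF7. By the labels and the study's methods, GFP stands for a control vector and OEIRF7 for an IRF7 overexpression vector. The methods put the mouse strains of the study on a C57BL/6 J background. The age and sex of the animals that gave these cells are not given in the sources used here, and no untreated cells were analysed here. Nothing in the labels says that replicates were separate cultures or animals. The paper's figure legend that covers this RNA-seq speaks of biological replicates, but gives a number other than the 4 libraries per group here. P-values therefore measure the spread between these libraries, which may be technical.

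Microtubules are hollow polymers of alpha- and beta-tubulin that grow and shrink at their ends. Structural microtubule-associated proteins (MAPs) bind along the polymer and stabilise it, stathmins hold free tubulin dimers back from it, and collapsin response mediator proteins bind tubulin and help assembly in growing cell processes. Map2, Mapt and Tubb3 are best known as neuronal genes, while Map4 is the MAP of most non-neuronal cells. Fibroblasts use microtubules for polarity, migration and transport, alongside the actin stress fibres that mark the activated state.

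Each library held 24454801 to 28658826 counts, and the common biological coefficient of variation was 5.62%. Levels are given as CPM, the reads of a gene scaled to a common library size with TMM factors. The targeted gene went against the label: mouse Irf7 averaged 118 ± 24 CPM (SD, n = 4) in libraries labelled GFP and 15.2 ± 0.82 in libraries labelled OEIRF7, and every GFP value lay above every OEIRF7 value. The materials of the study name a human IRF7 adenovirus as well as a mouse Irf7 vector, so mouse Irf7 may not read the vector that was used. Why mouse Irf7 was lower, and whether the labels are exchanged, was not tested. All directions below are those of the libraries labelled OEIRF7 over those labelled GFP, and each would turn if the labels were exchanged. Marker levels were summed as CPM by library total, without TMM. All 11 fibroblast markers were above 1 CPM in at least 1 library, with summed levels of 15950 to 16490 CPM in GFP and 14870 to 15730 CPM in OEIRF7. Of 16 neuron markers, 11 were below 1 CPM in every library and Chat had no count, and the summed level was 2.03 to 2.94 CPM in GFP and 3.82 to 9.73 CPM in OEIRF7. Summed markers of Schwann cells were 50.6 to 57.0 CPM in GFP and 42.0 to 47.7 CPM in OEIRF7, those of mural cells 65.1 to 71.5 and 77.5 to 98.1, of macrophages 247 to 295 and 306 to 342, and of epicardial cells 59.2 to 72.6 and 45.4 to 53.4. Those of endothelial cells were 190.9 to 201 CPM in GFP and 189.3 to 217.2 CPM in OEIRF7. Of 8 cardiomyocyte markers, 7 were below 1 CPM in every library, with sums of 9.61 to 13.43 and 7.59 to 9.63 CPM. Markers within a sum differed in direction, and the examples here were named after their values were seen. Among fibroblast markers, Tcf21 averaged 57.69 CPM in GFP and 23.35 in OEIRF7, Col3a1 1632 and 1153, and Postn 2606 and 2037. Vim averaged 2523 and 2995 CPM, and Pdgfra 120.6 and 146.6. Among mural markers, Cspg4 averaged 22.1 and 63.9 CPM and Notch3 averaged 41.0 and 13.7 CPM, and among epicardial markers Upk3b averaged 51.3 and 21.0 CPM and Krt19 averaged 4.70 and 18.6 CPM. Their part in the values below was not tested. In bulk RNA, fewer cells of a type and less RNA per cell cannot be told apart.

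Promoters are shown for 3 members, the one with the largest difference (Map2), a MAP that was higher with no overlap between groups (Map1a) and the beta-tubulin that was lower (Tubb3). Each covers 250 bases before to 50 after a RefSeq transcription start, and 5 of the 10 members had a promoter in the RefSeq table (GRCm38.p6), with 2 starts for Map4. Capitals mark each GGGCGG, the core of the GC box, or CCGCCC, the same letters on the other strand. The windows are chr1:66175079-66175378 for Map2, chr2:121289352-121289651 for Map1a and chr8:123411303-123411602 for Tubb3, all on the plus strand and written 5′ to 3′.
Map2: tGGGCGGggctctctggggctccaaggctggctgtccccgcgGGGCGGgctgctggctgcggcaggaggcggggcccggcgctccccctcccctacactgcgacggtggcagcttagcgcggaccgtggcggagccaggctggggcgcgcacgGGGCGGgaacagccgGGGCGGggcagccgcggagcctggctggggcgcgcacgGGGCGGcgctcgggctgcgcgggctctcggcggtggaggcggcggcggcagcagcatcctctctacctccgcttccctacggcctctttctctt
Map1a: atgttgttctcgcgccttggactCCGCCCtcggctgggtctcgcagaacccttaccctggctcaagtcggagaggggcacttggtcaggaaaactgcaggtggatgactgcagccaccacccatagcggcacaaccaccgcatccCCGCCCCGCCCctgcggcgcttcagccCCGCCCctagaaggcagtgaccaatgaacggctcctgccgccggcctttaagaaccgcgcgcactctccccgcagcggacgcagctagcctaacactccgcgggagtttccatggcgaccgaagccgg
Tubb3: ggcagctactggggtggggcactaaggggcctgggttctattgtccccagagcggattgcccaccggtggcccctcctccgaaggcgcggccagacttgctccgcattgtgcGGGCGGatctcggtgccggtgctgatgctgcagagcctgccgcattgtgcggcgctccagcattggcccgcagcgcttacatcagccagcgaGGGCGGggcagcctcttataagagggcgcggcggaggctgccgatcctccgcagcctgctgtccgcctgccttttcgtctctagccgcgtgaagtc
GGGCGG or its complement occurred 5 times in the Map2 window, 4 times in that of Map1a, 2 times in those of Map1b and Tubb3, and 3 and 0 times in those of Map4, while 35.7% of all 32851 promoter windows held it at least once. G and C made up 77.7% of the Map2 window, 65.7% of those of Map1a and Map1b, 67.3% of that of Tubb3, and 73.3% and 46.0% of those of Map4, against a median of 52.7% over all windows. TATAAA was found 1 time in the Map1b window and in none of the other 5, against 13.6% of all windows. A pair of GAAA separated by any 2 bases, the core shared by binding sequences of interferon regulatory factors, was found on neither strand in any of the 6 windows, and 3.44% of all windows held it. At a share that low, finding none in 6 windows was likely for any genes, so nothing is read from it. The IRF motif that the paper places upstream of Hk1 lies farther from the start than these windows reach and does not hold this pair. These are matches of letters in short windows and were not tested for binding.

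Map2, which binds along microtubules and spaces them into bundles, had by far the largest difference of the set. The gene lies at chr1:66175273-66442583 (GRCm38, plus strand), with 16 coding transcripts annotated. Its level was 244, 273, 198 and 244 CPM in GFP replicates 1 to 4, and 34.9, 32.3, 21.2 and 32.8 CPM in OEIRF7 replicates 1 to 4. The lowest GFP library held several times the highest OEIRF7 library, and replicate 3 was the lowest of each group. The fitted log2 fold change was -2.98 (SE 0.12), from 240 ± 31.0 to 30.3 ± 6.16 CPM (SD, n = 4 each). Among 10320 genes with a mean of at least 5 CPM, this was the second lowest log2 fold change, between Cemip at -2.99 and Irf7 itself at -2.96. Map2 remained measurable in the OEIRF7 libraries, which held 540 to 937 reads for it against 4887 to 6818 in the GFP libraries.

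The genes whose levels over the 8 libraries were most like those of Map2 were also far lower in the OEIRF7 libraries. Likeness was the root mean square difference of log2 CPM after each gene was centred on its own mean, over genes with a mean of at least 5 CPM. It was 0.0856 for Cemip, a hyaluronan-degrading protein, 0.217 for Irf7, 0.287 for Apcdd1, an inhibitor of Wnt signalling, 0.336 for Myl9, a myosin light chain of contractile cells, and 0.341 for Abca8a, a lipid transporter. None of the 5 is a microtubule protein. With 2 groups this far apart, the measure mostly ranks genes by the size of their difference.

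None of the other structural MAPs of the set differed as much as Map2, and they did not all differ in its direction. Map1a (chr2:121289600-121310832, plus strand), which links microtubules to other proteins in mature neurons, measured 149, 135, 144 and 147 CPM in GFP and 206, 206, 214 and 227 CPM in OEIRF7. The groups did not overlap, and every OEIRF7 library was above every GFP library, with a log2 fold change of 0.57 (SE 0.041). Map1b (chr13:99421446-99516540, minus strand), the MAP of young, extending processes, measured 145 to 162 CPM in GFP and 134 to 147 CPM in OEIRF7, with a log2 fold change of -0.14 (SE 0.042) and overlapping groups. Map4 (chr9:109931460-110083955, plus strand), the widespread MAP, measured 636 to 687 CPM in GFP and 621 to 652 CPM in OEIRF7. Its groups overlapped too, with a log2 fold change of -0.07 (SE 0.031). Mapt (chr11:104231390-104332090, plus strand), which encodes tau, was barely detected, with 6 to 14 reads a library in GFP and 11 to 29 in OEIRF7. Its groups overlapped and its log2 fold change of 0.92 had an SE of 0.39, ranging from 0.56 without OEIRF7 replicate 4 to 1.18 without GFP replicate 4. Mapt passed the filter on low counts through the OEIRF7 libraries, the group where it was higher, so nothing is read from its direction. Annotated genes on the opposite strand overlap Map2 (Gm10558), Map1a (Ppip5k1 and Gm14978), Map4 (Gm43732) and Mapt (Gm11659, Gm22743 and Gm47310). They make these values uncertain, since the strand setting of the counting is not given in the sources used here. On the same strand, gene models overlap Map2 (Gm24729 and Gm25411), Map1b (5330431K02Rik) and Map4 (Gm42432, Gm42433 and Gm4734). How reads were split with them was not examined.

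**Figure D1:**
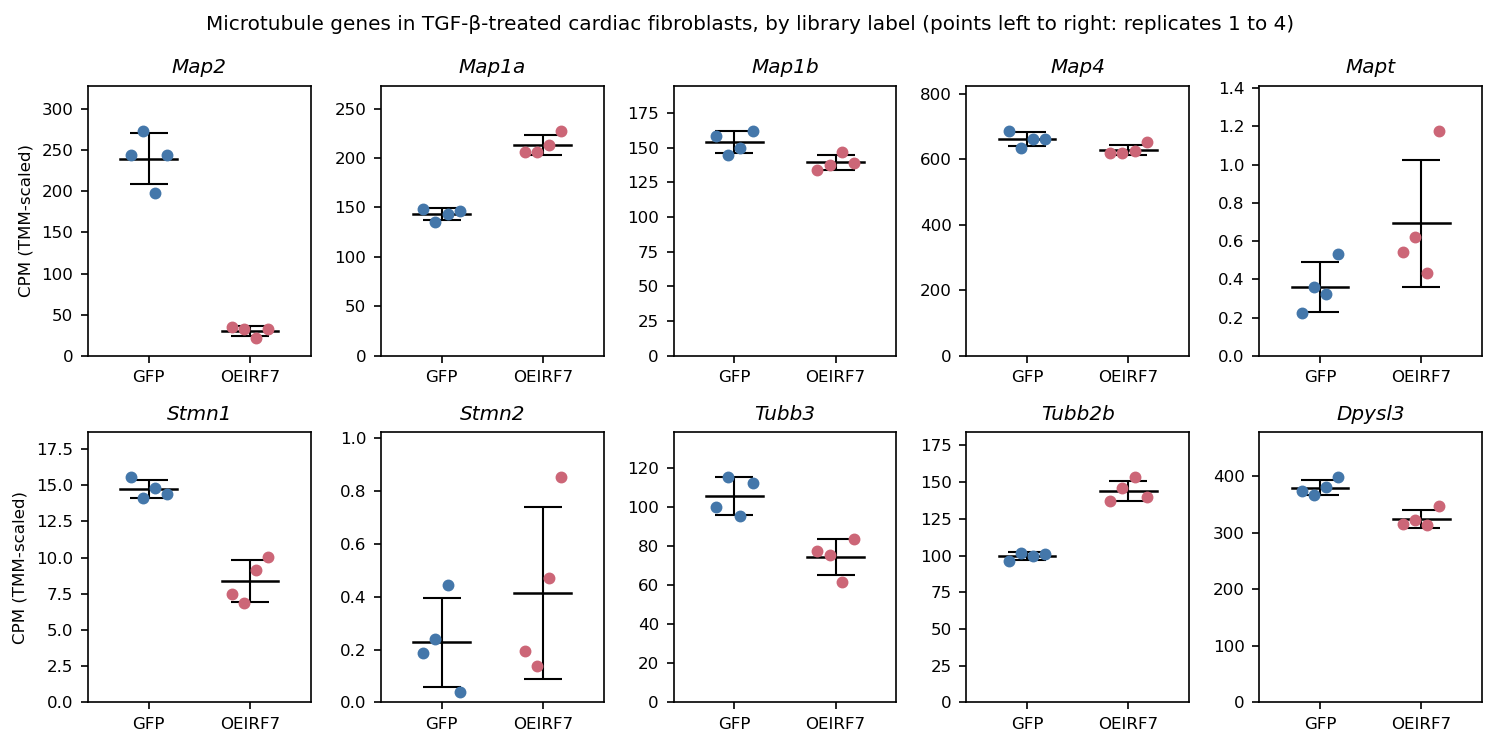
TMM-scaled CPM of the 10 genes in each library, with 1 panel per gene, points for replicates 1 to 4 from left to right, bars for the mean and whiskers for the SD. The GFP and OEIRF7 points are apart for Map2, Map1a, Stmn1, Tubb3, Tubb2b and Dpysl3, and overlap for Map1b, Map4, Mapt and Stmn2.

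Set per length, the 5 structural MAPs changed in composition. Deposited FPKM (fragments per kilobase of transcript, scaled to depth) of Map2 were 75.1, 85.6, 62.3 and 71.8 in GFP and 10.4, 10, 6.40 and 11.2 in OEIRF7. Of the summed FPKM of Map1a, Map1b, Map2, Map4 and Mapt, Map2 took 30.7% ± 2.87 in GFP and 5.25% ± 1.10 in OEIRF7 (SD, n = 4 each). Map4 took 57.9% ± 2.16 and 76.4% ± 0.678, and Map1a took 5.79% ± 0.382 and 11.6% ± 0.156. The Map4 share differed although its own level was 138 ± 3.06 FPKM in GFP and 138 ± 5.01 FPKM in OEIRF7, since the summed FPKM went from 239 ± 10.2 to 181 ± 6.97. On this scale the order of levels in GFP was Map4, then Dpysl3 and Map2, Tubb3, Tubb2b, then Map1a, Stmn1 and Map1b, then Mapt and Stmn2. In OEIRF7 it was Map4, then Dpysl3 and Tubb2b, Tubb3, Map1a, Map1b, then Map2 and Stmn1, then Mapt and Stmn2. Genes joined by "and" had overlapping library ranges, so their order was not resolved. Map2 thus stood beside Dpysl3 in GFP and beside Stmn1 in OEIRF7.

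The ratio of counts to FPKM of Map2 stayed alike between groups. CPM by library total divided by FPKM stands in for the length, in kb, that the FPKM were scaled by. Counts and FPKM came from different programs, so the ratio also holds any difference in how they assigned reads. For Map2 it was 3.15 to 3.36 kb in GFP and 2.95 to 3.39 kb in OEIRF7, and its longest annotated coding transcript spans 6.26 kb. The same ratio for Tubb3, whose longest coding transcript is 1.87 kb, was 1.87 kb in both groups. Reads of the separate Map2 isoforms were not analysed here, and isoform use is not read from the ratio.

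**Figure D2:**
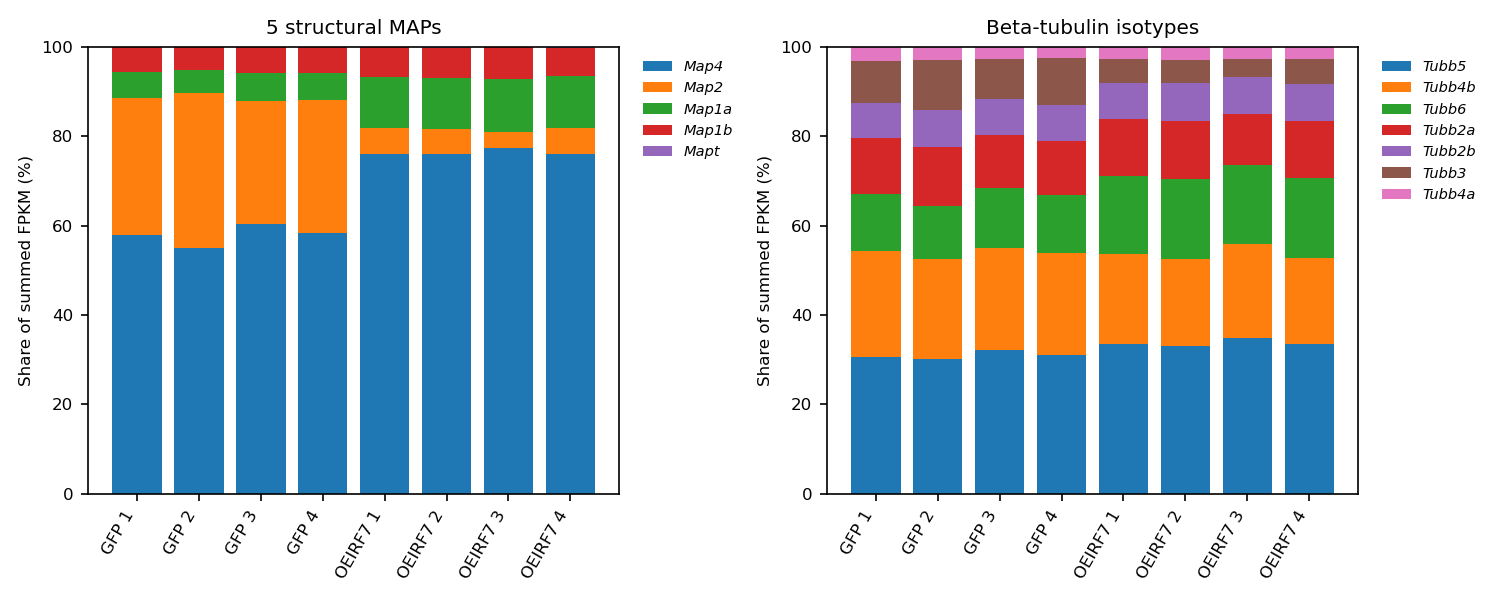
Share of summed FPKM (%) in each library, stacked by gene, for 5 structural MAPs (left) and the beta-tubulins (right, leaving out a gene that stayed near 0). Map2 is the second largest band in all GFP libraries, at 30.7% on average, and the smallest visible band in all OEIRF7 libraries, at 5.25%, while Tubb3 goes from 9.94% to 5.03% of beta-tubulin.

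Both beta-tubulins of the set differed, in opposite directions. Tubb3 (chr8:123411424-123422015, plus strand), the beta-tubulin used as a neuronal marker, measured 100, 115, 95.2 and 112 CPM in GFP and 77.3, 75.5, 61.7 and 83.7 CPM in OEIRF7. The groups did not overlap, replicate 3 was the lowest of each group as for Map2, and the log2 fold change was -0.50 (SE 0.080). Tubb2b (chr13:34126748-34130466, minus strand), a beta-tubulin of developing brain, measured 96.3, 102, 99.6 and 101 CPM in GFP and 137, 146, 153 and 140 CPM in OEIRF7. Every OEIRF7 library was above every GFP library, with a log2 fold change of 0.53 (SE 0.040). Beta-tubulins resemble each other in sequence, and Tubb2b and Tubb2a are nearly identical. The split of reads is therefore uncertain, most of all between Tubb2b and Tubb2a. Tubb3 shares its position with the same-strand gene model Gm20388.

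Summed over all 8 beta-tubulin genes, the level went from 564 ± 8.13 to 803 ± 22 FPKM. Within that sum, the share of Tubb3 was 9.94% ± 0.966 in GFP and 5.03% ± 0.741 in OEIRF7, while that of Tubb2b was 8.03% ± 0.255 and 8.29% ± 0.212. Tubb6, the isotype of many non-neuronal cells, took 12.7% ± 0.663 and 17.7% ± 0.178. Tubb3 therefore made up less of a larger beta-tubulin total, and Tubb2b kept its share.

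The regulators that bind free tubulin were lower or near the limit of detection. Stmn1 (chr4:134468320-134473843, plus strand), stathmin, which binds tubulin dimers and is abundant in dividing cells, measured 15.5, 14.1, 14.8 and 14.4 CPM in GFP and 7.48, 6.89, 9.11 and 10.02 CPM in OEIRF7. The groups did not overlap, and the log2 fold change was -0.82 (SE 0.10). Stmn1 shares its position with the same-strand gene model Gm23634. Dpysl3 (chr18:43320984-43438286, minus strand), a collapsin response mediator protein, measured 374, 367, 381 and 398 CPM in GFP and 316, 322, 313 and 347 CPM in OEIRF7. The OEIRF7 libraries were all below the GFP libraries by a small margin, with a log2 fold change of -0.23 (SE 0.039). Stmn2 (chr3:8509360-8561606, plus strand), a stathmin of axons, had 1 to 11 reads in GFP and 4 to 21 in OEIRF7 and was not fitted. The spindle protein list below, a set of genes of dividing cells, moved in the same direction as Stmn1, and its part in the Stmn1 value was not tested.

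Counted together, 2 of the 9 fitted members (Map1a and Tubb2b) were higher at an adjusted p under 0.05, where 29% of all 13533 tested genes were, and 5 (Map2, Stmn1, Tubb3, Dpysl3 and Map1b) were lower, where 29.9% of all were. With a fold over 1.5 as well, 0 were higher against 9.26% of all genes and 2 (Map2 and Stmn1) were lower against 9.64%. Without any model, 2 members were higher with no overlap between groups against 26.8% of all genes, and 4 were lower against 27%. The median log2 fold change of all tested genes was 0.0015. Since the contrast chose the set, nothing is read from these counts. Map1a and Tubb2b lay just under the 1.5-fold line, at 0.57 and 0.53 on the log2 scale.

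**Figure D3:**
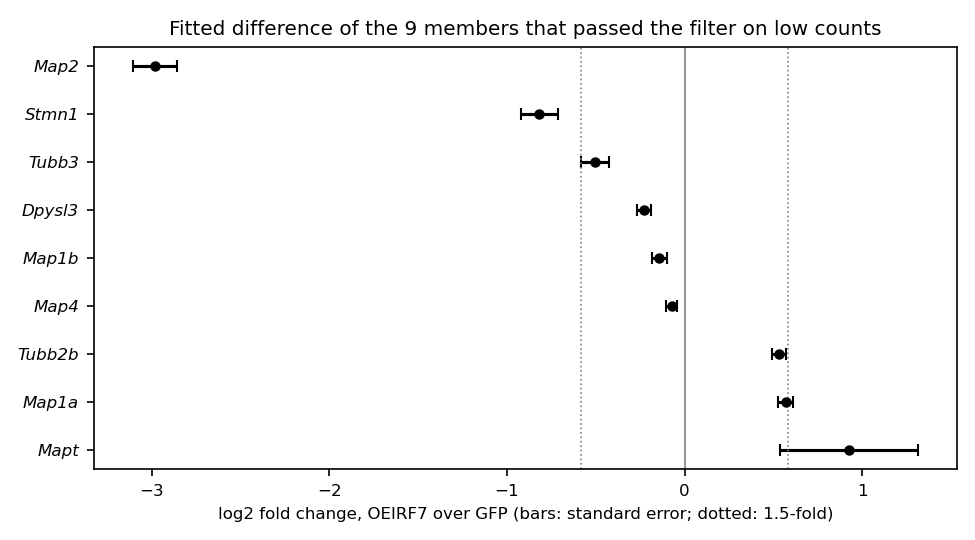
Fitted log2 fold change (OEIRF7 over GFP) of the 9 fitted genes, with the standard error as bars and dotted lines at 1.5-fold in either direction. Map2 at -2.98 stands far to the left of Stmn1 at -0.82, and Mapt at 0.92 has the widest bar.

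Other genes of the microtubule system were examined in 10 lists that hold none of the 10 genes above. The lists were chosen with earlier results of these data known, so their shares and p-values are a description and not an independent test. Of 135 genes, 128 were tested, 23 (18.0%) were higher and 65 (50.8%) lower at an adjusted p under 0.05, against 29% and 29.9% of all genes. With a 1.5-fold change as well, 11 (8.59%) were higher and 25 (19.5%) lower, against 9.26% and 9.64% of all genes. The spindle list held 16 of those 25. Without it, 11 of 109 genes (10.1%) were higher and 9 (8.26%) were lower by 1.5-fold, and 23 (21.1%) were higher and 47 (43.1%) lower at the adjusted p alone. In the lists below, higher and lower without a fold mean the adjusted p alone, and the shares stand beside the same 29% and 29.9%.

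Most other tubulin chains were higher. Of 14 tested, 9 (64.3%) were higher and 3 (21.4%) lower, with a median log2 fold change of 0.36, and 5 rose by over 1.5-fold and none fell by as much. Tuba1c, an alpha-tubulin, rose from 94.8 ± 8.0 to 251 ± 15.1 CPM, a log2 fold change of 1.40 (SE 0.057, adjusted p = 7.7e-11). How reads were split between Tuba1c and the other, more abundant Tuba1 genes was not examined, so its value is uncertain as that of Tubb2b is. Tubb6 rose by 0.96 (SE 0.045, adjusted p = 2.6e-10). The others were Tuba4a at 0.90, Tubb5 at 0.61 and the sparsely detected Tuba8 at 1.56, named after their values were seen. Tuba8 averaged 0.23 ± 0.056 CPM in GFP and 0.70 ± 0.15 in OEIRF7. It passed the filter on low counts only through the OEIRF7 libraries, where it was higher, so nothing is read from its rise. Of 5 tubulin folding cofactors, 2 (40%) were higher at the adjusted p and none passed 1.5-fold, with a median of 0.16.

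The other structural MAPs were mostly lower. Of 17 tested, 3 (17.6%) were higher and 10 (58.8%) lower, and their median was -0.37. None rose and 4 fell by over 1.5-fold, and none came near the difference of Map2. Map7, which recruits kinesin-1, fell from 3.51 ± 0.767 to 1.57 ± 0.323 CPM, a log2 fold change of -1.15 (SE 0.20, adjusted p = 0.00019). Its relative Map7d3 fell by 0.92 (SE 0.13, adjusted p = 3.2e-05). The other two, Mtus2 at -0.83 and Dclk2 at -0.68, were named after their values were seen. Among paralogs of Stmn1, Stmn2 and Dpysl3, only Crmp1 and Dpysl2 of 6 had enough counts. Dpysl2 fell from 54.8 ± 1.65 to 30.9 ± 1.28 CPM (log2 fold change -0.83, SE 0.045, adjusted p = 1.1e-09) and Crmp1 rose by 0.59 (SE 0.10, adjusted p = 0.00013), giving a median of -0.12. Crmp1 was under 1.5-fold without GFP replicate 2 or 3 or OEIRF7 replicate 4, at 0.53 to 0.54. A larger fitted difference was thus seen for Dpysl2 than for its paralog Dpysl3, and the difference between them was not tested.

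Of 13 tested proteins of the growing end, 3 (23.1%) were higher and 9 (69.2%) lower, with a median of -0.19. Mapre3, an end-binding protein, fell by 0.61 (SE 0.048, adjusted p = 6.4e-08), and Cep170, a centrosomal protein, rose by 0.61 (SE 0.037, adjusted p = 4.1e-09). Both were close to the 1.5-fold line, and Mapre3 without OEIRF7 replicate 1 and Cep170 without GFP replicate 2 were just under it, at -0.58 and 0.58. No gene of the 10 severing and minus-end proteins passed 1.5-fold, with 3 (30%) lower at the adjusted p and a median of -0.05. Among 17 tubulin-modifying enzymes, 2 (11.8%) were higher and 6 (35.3%) lower, with a median of -0.13. Vash2, which removes the terminal tyrosine of alpha-tubulin, rose from 7.05 ± 0.676 to 14.1 ± 0.595 CPM (log2 fold change 1.0, SE 0.082, adjusted p = 9.5e-08). Agbl2, a tubulin carboxypeptidase, fell by 0.97 (SE 0.20, adjusted p = 0.00059).

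Of 8 kinases that phosphorylate MAPs or their partners, 1 (12.5%) was higher and 5 (62.5%) lower, with a median of -0.23. Mark1, which phosphorylates Map2, Map4 and tau at their tubulin-binding repeats, rose by 0.68 (SE 0.056, adjusted p = 1e-07). Cdk5r1, the activator of Cdk5, averaged 1.52 ± 0.549 and 0.89 ± 0.162 CPM with overlapping groups (log2 fold change -0.77, SE 0.28, adjusted p = 0.032), and this call was lost without any of 5 single libraries. Those were GFP replicates 1 and 2 and OEIRF7 replicates 1, 2 and 4, which gave adjusted p of 0.052 to 0.12. Of 23 interphase motors, 2 (8.70%) were higher and 10 (43.5%) lower, with a median of -0.07. The kinesins Kif21b and Kif5c rose by 0.78 (SE 0.073, adjusted p = 3.7e-07) and 0.72 (SE 0.10, adjusted p = 3.4e-05), and Dync1li2, a light intermediate chain of cytoplasmic dynein, fell by 0.74 (SE 0.033, adjusted p = 1.6e-10).

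Spindle proteins were the list that moved most. Of 19 genes, 18 (94.7%) fell at the adjusted p and 16 (84.2%) also by over 1.5-fold, none rose, and the median was -1.17. Kif22, named after its value was seen, did not pass, at -0.25 (adjusted p = 0.058; 0.040 without GFP replicate 1). Nusap1, which bundles spindle microtubules, fell from 3.81 ± 0.122 to 0.66 ± 0.195 CPM, a log2 fold change of -2.52 (SE 0.20, adjusted p = 6e-08). Kif2c, a microtubule-depolymerising kinesin, fell by 1.74 (SE 0.19, adjusted p = 2.1e-06).

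**Figure D4:**
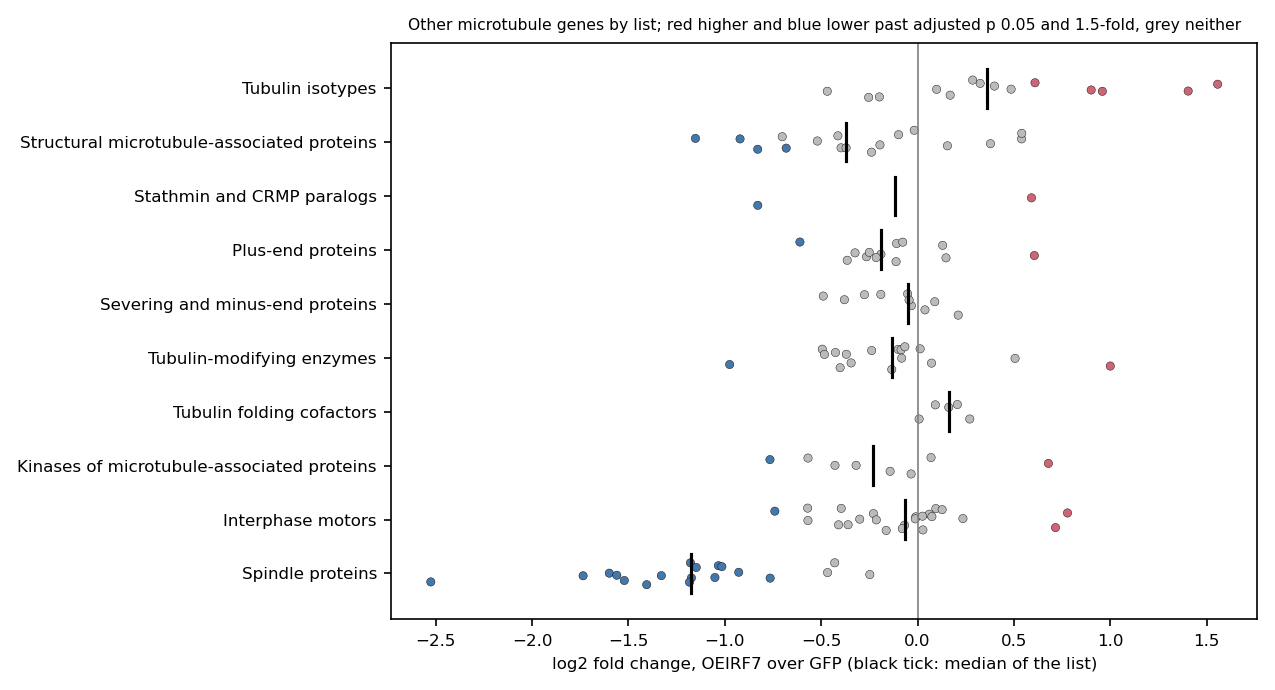
Log2 fold change (OEIRF7 over GFP) of 128 tested microtubule genes in 10 lists that leave out the 10 genes above, 1 point a gene with vertical jitter, coloured where the adjusted p was under 0.05 and the fold over 1.5, with a black tick at each median. Spindle proteins centre on -1.17, tubulin isotypes on 0.36 and the other lists between -0.37 and 0.16.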

How the data were processed

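RNA-seq counts and FPKM of 8 libraries were used, 4 per group, grouped by their labels. The authors mapped trimmed reads to GRCm38 with HISAT2 and deposited raw counts per gene from HTSeq-count. The authors also deposited FPKM from Cufflinks, normalized for length and depth. Versions and the strand setting are not given in the sources used here. The deposited group means, log2 fold changes and p-values of the authors were not used. Sources differ on the virus used, adenovirus in the paper and an adeno-associated one in the series text.

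In 121 gene symbols GFP stood in place of nc, and these were restored by Ensembl identifier. Of 22274 identifiers, 22219 matched GENCODE M21, which gave positions. The test of counts was that of edgeR 4.0.16 under R 4.3.3 (filterByExpr, TMM, glmQLFit, glmQLFTest, no covariates) and Benjamini-Hochberg adjustment over 13533 genes. A call was an adjusted p under 0.05, with a fold over 1.5 where stated. The script was tested on simulated data. Group means are of TMM-scaled CPM. Alternatives were DESeq2 1.42.0, limma 3.58.1 on log2(FPKM + 1) and log2(FPKM + 0.1), other scalings and filters, a replicate block and leaving out each library. Intervals of counting error were not computed, and values under 1 CPM stand on few reads.

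The members and lists were chosen with earlier results of these data known. Text names all members, Irf7, the 5 genes most like Map2, and in each list the 2 genes past the call with the largest change in each direction and a mean of at least 1 CPM. Exceptions are said to be named after their values were seen.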

Additional observations from a re-analysis of the deposited data

Results flagged for a closer look

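In 3 of 54 groups of 4 libraries examined, 1 library stood apart by Dixon's test. Chance marks about 5% of groups. Map2 in OEIRF7 replicate 3 was at 21.2 CPM with the others at 32.3 to 34.9 CPM, a gap of 0.845 of the range. Without that library the log2 fold change of Map2 was -2.85. Replicates were also compared in pairs by a chi-square of all counts per degree of freedom, near 1 for counting error alone. Pairs with OEIRF7 replicate 3 gave 6.21, 8.67 and 8.18, and the other OEIRF7 pairs gave 2.69, 3.30 and 4.10. Pairs with GFP replicate 2 gave 4.96, 5.91 and 5.34, and the other GFP pairs gave 3.34, 3.27 and 3.64. OEIRF7 replicate 3 thus differed from its group over all genes, not in Map2 alone. GFP replicate 2, the library with the highest Map2 level, also stood apart from its group, by less. Without GFP replicate 2 the log2 fold change of Map2 was -2.92. Dpysl2 in GFP replicate 1 was at 52.3 CPM with the others at 55.5 to 55.9 CPM, a gap of 0.886 of the range. Kif21b in OEIRF7 replicate 2 was at 19.2 CPM with the others at 16.2 to 16.6 CPM, a gap of 0.831 of the range.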

How the results depend on the processing

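Map2 and Stmn1 were the 2 members lower by 1.5-fold under every alternative run, and the log2 fold change of Map2 ranged from -3.06 to -2.85. The count of members higher by 1.5-fold, 0 as reported, was 2 with library size only (Map1a and Mapt), 1 with the replicate block (Mapt), 1 with limma on log2(FPKM + 0.1) (Map1a), and 0 to 1 when 1 library was left out (Mapt without GFP replicate 4 or OEIRF7 replicate 3, Map1a without OEIRF7 replicate 2). Pathway genes higher and lower numbered 11 and 25 as reported and 6 and 13 with limma on log2(FPKM + 1), a scale that shrinks low genes. Leaving out 1 library gave 9 to 12 and 24 to 25. Over all genes, that limma fit called 765 higher and 669 lower by 1.5-fold against 1253 and 1305. The difference of Map4 was -0.0033 on both FPKM scales, and that of Mapt was 0.14 on log2(FPKM + 1). Map4 passed the adjusted p as lower with the replicate block, without GFP replicate 2 and without OEIRF7 replicate 4. Its log2 fold changes there were -0.072, -0.093 and -0.089, and it passed in no other run. No direction of the fitted members, of the 17 pathway genes named by rule or of the 19 other genes named reversed under any alternative that fitted them. The 17 pathway genes kept an adjusted p under 0.05 in 265 of 272 refits, and all 7 losses were of Cdk5r1. They kept 1.5-fold as well in 250, and the 22 losses, 9 of them on log2(FPKM + 1), were spread over 10 genes (Map7, Map7d3, Crmp1, Mapre3, Cep170, Agbl2, Mark1, Cdk5r1, Kif21b and Kif5c). Libraries of the same number correlated in their deviations from the group mean at 0.0792 to 0.138, and all other pairs at -0.158 to 0.0476. Each library thus correlated best with its own number, a hint of pairing from the data and not from the design. No label states a pairing and not all values were over 0.1, so the main fit did not pair the libraries. That cutoff is not given by the design, and pairing stays possible. With the replicate block, 8211 genes passed the adjusted p against 7969, and 9 members against 7. Mapt and Stmn2 rest on 1 to 29 reads a library, and their differences were not resolved at this depth. Since Mapt passed the filter through the group where it was higher, nothing is read from its calls under the alternatives.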

Other observations

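The table's own gene ontology column puts 8 of the 10 members, all but Stmn2 and Dpysl3, and 341 other genes in the component microtubule. This group was examined after other values were seen. Of the 341, 286 were tested, with 18 (6.29%) higher and 44 (15.4%) lower by over 1.5-fold at an adjusted p under 0.05, and a median log2 fold change of -0.13. Over all tested genes these shares were 9.26% and 9.64%. Of the 198 that were in none of the 10 lists, 11 (5.56%) were higher and 27 (13.6%) lower.

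Among those outside the lists and with a mean of at least 1 CPM, the lowest log2 fold change was that of Hook3, an adaptor of cytoplasmic dynein, at -1.80 (SE 0.038, edgeR adjusted p = 1.9e-13), from 157 ± 4.54 to 45.0 ± 1.25 CPM. Kif26b, a kinesin family member, fell from 170 ± 12.2 to 51.2 ± 10.5 CPM, and Fgf13, an intracellular FGF homologue that binds tubulin, fell by 1.71. Aspm, a spindle pole protein, fell by 1.64. Hook1, a paralog of Hook3, moved the other way, from 1.09 ± 0.306 to 2.41 ± 0.225 CPM, at 1.13 (SE 0.22, edgeR adjusted p = 0.00038). Fam110c had the highest log2 fold change of these genes at 1.44, followed by Ccsap, a centriole and spindle protein, at 1.15, and Dnm1, a dynamin, was at 1.01.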
